A study of Mus musculus with 8 samples.

Results

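The carbohydrate and glycerol metabolism genes, namely Gapdh, Pgk1, Ldhal6b, G6pd2 and Gk, were followed across all 8 arrays of a study of mouse aortic smooth muscle. They are 5 of the 16 genes that can be named here, and they were chosen by the RefSeq accession of a probe with 20 spots (G6pd2, Gapdh, Gk and Ldhal6b) or by the name of the control spots for mouse GAPDH and PGK1. Together they have 8 probes among 60930 probes outside the control classes and the control spots. Each control name has a 3′ end and a 5′ end probe with 10 spots per array, and the 3′ end was used for level. All 8 probes passed the filter on dim probes, so no member was left out.

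RNA was measured with 1-colour arrays in 5 groups. The controls were wild-type cells at passage 3 given an empty adenovirus (2 arrays). Srf knockout cells at the same passage received the same empty virus (2 arrays), and a further set of wild-type cells received a Myocd adenovirus (2 arrays). Every culture carried virus at a multiplicity of infection of 100 for 3 days. Freshly isolated wild-type aorta and liver had 1 array each. Srf encodes serum response factor and Myocd its coactivator myocardin, which together drive contractile genes in smooth muscle. The labels give neither the way Srf was deleted nor the age or strain of the mice, and nor do they state that replicates were separate animals or cultures. A p-value here therefore reflects how far 2 arrays of a group lie apart, and that distance may be technical. This spread was pooled over the 3 cultured groups and moderated over all tested probes. Overexpression from a virus says nothing of the normal level of Myocd.

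Gapdh and Pgk1 encode consecutive enzymes of lower glycolysis: glyceraldehyde-3-phosphate dehydrogenase makes 1,3-bisphosphoglycerate, and phosphoglycerate kinase uses it to make ATP. Lactate dehydrogenases then turn pyruvate into lactate, and Ldhal6b is an A-like member of that family known chiefly from testis. Glucose-6-phosphate dehydrogenase opens the pentose phosphate pathway, which supplies NADPH and ribose. G6pd2 is an autosomal retrocopy of its X-linked gene G6pdx. Gk encodes glycerol kinase, which phosphorylates glycerol for lipid synthesis or gluconeogenesis and is known for high activity in liver. Of the other genes of these pathways none has a named probe: the lists for glycolysis, the pentose phosphate pathway, glycerol metabolism and the lactate dehydrogenase family hold 45 genes, and the 5 described are all that could be found.

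Levels are given as log2 of the processed intensity, less the 75th percentile of the same array. That percentile lay between 452 and 498 on the cultured arrays, at 364 in aorta and at 165 in liver. None of the 25 genes listed as markers of smooth muscle, liver or other cell types, Srf and Myocd included, has a named probe, so labels could not be checked against them. Slide 1 held the wild-type and knockout arrays, slide 2 the other 4. Replicates differed most among wild-type arrays, with a robust SD of 0.43 for the log2 difference over 44085 probes, against 0.22 for knockout and 0.22 for Myocd arrays.

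Because a retrocopy resembles its parent, the start regions of G6pd2 and G6pdx were set side by side, using RefSeq's table of start sites on GRCm38.p6. The longest run they share is 27 bases. It lies at chr5:61808833-61808859 (plus strand) for G6pd2 and at chrX:74428839-74428865 (minus strand) for G6pdx. Shown in lower case, it is identical in both genes:
G6pd2 and G6pdx: ctacagatctgtgaacgtgtttggcag
In G6pd2 the run reaches from 10 bases before the annotated start to base 17 of the transcript, and in G6pdx from base 16 to base 42. Extended to the end of both windows, 34 of 35 bases are identical. No other window among 32849 holds a run of this length in common with G6pd2. The array files give no probe sequence, so which of the 2 transcripts the G6pd2 probe measured is uncertain, and every G6pd2 value below carries that limit.

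The 250 bases before the annotated start are shown for the genes that passed with Myocd against empty virus, since smooth muscle targets of Srf often carry a CArG box in this stretch. Capitals mark matches on either strand. The motifs searched were ACGTG, then CACGTG (a palindrome that holds the former on both strands), the GC box GGGCGG, and the sequence TATAAA, besides the CArG box. The CArG box was searched as CCWWWWWWGG, where W is A or T, with no mismatch allowed. The windows are chr5:61808593-61808842 (plus strand) for G6pd2, chrX:85776820-85777069 (minus strand) for Gk and chr17:5418768-5419017 (minus strand) for Ldhal6b, all on GRCm38.p6.
G6pd2: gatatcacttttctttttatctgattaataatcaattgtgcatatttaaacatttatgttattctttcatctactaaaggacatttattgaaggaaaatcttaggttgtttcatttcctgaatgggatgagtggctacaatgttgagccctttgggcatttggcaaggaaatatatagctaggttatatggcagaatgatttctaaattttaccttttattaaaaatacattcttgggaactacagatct
Gk: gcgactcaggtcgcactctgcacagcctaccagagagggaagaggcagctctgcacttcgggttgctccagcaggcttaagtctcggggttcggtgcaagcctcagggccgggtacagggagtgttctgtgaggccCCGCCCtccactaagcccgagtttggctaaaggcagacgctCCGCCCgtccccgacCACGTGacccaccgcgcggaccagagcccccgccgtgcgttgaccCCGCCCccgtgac
Ldhal6b: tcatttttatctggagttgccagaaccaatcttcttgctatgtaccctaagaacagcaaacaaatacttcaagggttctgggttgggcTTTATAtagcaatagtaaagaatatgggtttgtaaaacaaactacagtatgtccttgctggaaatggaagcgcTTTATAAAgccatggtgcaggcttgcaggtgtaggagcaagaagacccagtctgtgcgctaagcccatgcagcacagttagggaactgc
No CArG box of this strict form was found in any of the 5 windows, Gapdh and Pgk1 included. Of 32851 windows of this length, 1.47% hold one. The Gapdh window (chr6:125165774-125166023) lies within the annotated gene, which reaches to 125166467, so it does not precede the outermost start. The Gk window holds GGGCGG at 3 places and CACGTG at 1 place, motifs found in 32.7% and 6.02% of all windows. In Ldhal6b, TATAAA matched 3 times, 2 of them overlapping (12.4% of all windows), and in Pgk1, ACGTG matched 2 times (16.6% of all windows) and GGGCGG 1 time. G6pd2 holds none of the motifs. Its window has 30% G and C, against 61.2% for the window before G6pdx and a median of 52.4% over all windows. These are matches of letters and not sites of binding.

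Among the 8 probes, 1 passed in the knockout comparison, where 20.6% of all 44085 tested probes were called. With Myocd against empty virus 3 passed, with 15.2% of all probes called, and with Myocd against knockout cells 3 passed, with 28% called. These were G6pd2 in the knockout; G6pd2, Gk and Ldhal6b with Myocd; and G6pd2, Gk and the 5′ probe of Pgk1 between Myocd and knockout cells. Probes of a gene are not independent. For 7 of the 8 probes the knockout and wild-type arrays did not overlap. With Myocd against empty virus this held for 5, and with Myocd against knockout cells for 7. With 2 arrays against 2 the smallest exact permutation p is 0.333, so a lack of overlap is no test. Its share over all tested probes is not given here. The knockout and Myocd comparisons share the wild-type arrays. Myocd arrays lay on the other slide from wild-type and knockout arrays, so for every Myocd value the virus and the slide cannot be told apart, while the knockout comparison lies within slide 1. The share of higher against lower calls moved with scaling: in the knockout, 5395 probes were higher and 3701 lower, and with array medians as scale 3715 and 6131. For Myocd against empty virus these numbers were 3523 and 3172, and 2925 and 3984, and for Myocd against knockout 5178 and 7154, and 5909 and 5678.

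G6pd2 was the member that moved most in cultured cells: its level was higher without Srf, lower with Myocd and in aorta, and lowest in liver. In wild-type cells it stood at 4.22 and 4.06 on the 2 arrays, in knockout cells at 5.06 and 4.95, and with Myocd at 2.52 and 2.44. Within each group the arrays lay closer together than any groups did, and the 3 cultured groups did not overlap. Knockout cells had a level 1.82-fold that of wild-type cells, a log2 change of 0.87 (SE 0.14, 95% interval 0.51 to 1.22, limma adjusted p = 0.0111). With Myocd it was 3.17-fold lower, at a log2 change of -1.67 (95% interval -2.02 to -1.31, SE 0.14, limma adjusted p = 0.00152). Among all tested probes, 10.6% had a change at least as high in the knockout, and 0.871% a change at least as low with Myocd. The direct contrast, Myocd minus knockout, was -2.53 (SE 0.14, limma adjusted p = 0.000126), a 5.78-fold difference. The knockout call was lost without knockout replicate 1 (limma adjusted p = 0.102) or knockout replicate 2 (limma adjusted p = 0.0638), with changes of 0.81 and 0.92. Both Myocd contrasts kept their calls in all 18 alternatives. The 18 are not all distinct: leaving out either array of the group not compared gave the same fit as using only the 2 groups compared.

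**Figure D1:**
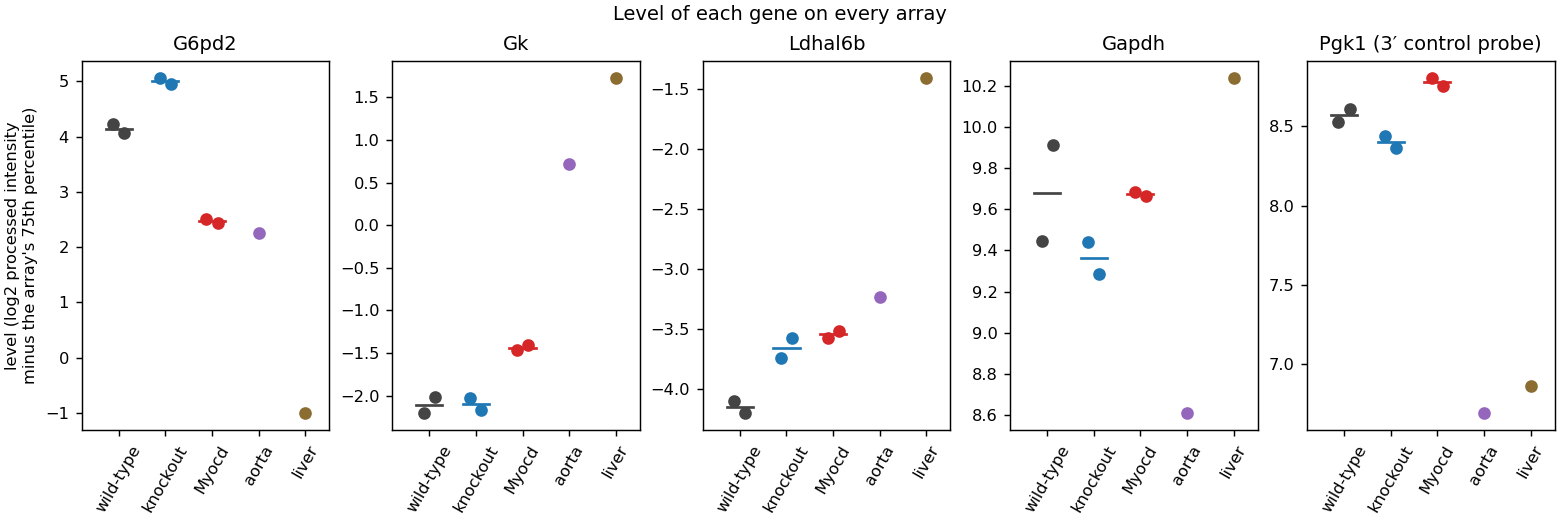
Each point is 1 array, the vertical axis is the level (log2 of the processed intensity, less the 75th percentile of the array), and bars mark the mean of the 2 arrays of a cultured group; the panels have separate scales. G6pd2 falls from 5.01 in knockout cells to -1.0 in liver, whereas Gk and Ldhal6b are highest in liver, at 1.73 and -1.41. Ldhal6b lies close to background, and the median level of the probes named MM9NEGATIVE is also highest in liver, at -5.64.

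Gk, the glycerol kinase gene, was dim in cultured cells, rose with Myocd and was far higher in both tissues. Its levels were -2.20 and -2.02 in wild-type cells, -2.02 and -2.17 in knockout cells, and -1.47 and -1.41 with Myocd. Wild-type and knockout arrays overlapped, and both Myocd arrays lay above them. The spots of Gk spread by an SD of 0.33 on both wild-type arrays, against 0.14 to 0.15 on knockout and Myocd arrays. The median level of the probes named MM9NEGATIVE was 0.23 higher on Myocd than on wild-type arrays, and its part in the Gk change was not tested. The rise with Myocd was 1.60-fold (log2 change 0.68, SE 0.15, 95% interval 0.31 to 1.04, limma adjusted p = 0.0331), and 10.8% of tested probes had a change at least as high. For the knockout the change was 0.01 (95% interval -0.35 to 0.38, limma adjusted p = 0.954), and its sign depended on scaling. Myocd minus knockout was 0.66 (SE 0.15, limma adjusted p = 0.0214). Against empty virus, Gk passed in 8 of 18 alternatives, with changes from 0.45, under the normexp background correction, to 0.77. Of the 6 fits that each left out an array, it passed in the fit without wild-type replicate 2 only (limma adjusted p = 0.0598 without wild-type replicate 1, 0.0823 without either knockout array, 0.139 and 0.181 without Myocd replicates 1 and 2). Against knockout cells it was lost without either array of each of the 2 groups (limma adjusted p from 0.0918 to 0.142).

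Ldhal6b was the dimmest member, 0.70 to 1.54 log2 units above the lowest level called well above background on the cultured arrays. It stood at -4.10 and -4.20 in wild-type cells, -3.74 and -3.58 in knockout cells, and -3.58 and -3.51 with Myocd. These are processed intensities of 24.9 to 41.8. Both wild-type arrays lay below the other 4. With Myocd the level rose 1.52-fold (log2 change 0.60, SE 0.14, 95% interval 0.25 to 0.96, limma adjusted p = 0.0420). In the knockout the change was 0.49 (SE 0.14, 95% interval 0.14 to 0.84) and did not pass (limma adjusted p = 0.0631), although it passed with outlier spots kept (limma adjusted p = 0.0482). It also passed when a probe had to be detected on each of the 6 cultured arrays (limma adjusted p = 0.0497). Myocd minus knockout was 0.12 (95% interval -0.24 to 0.47, limma adjusted p = 0.605).

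The Myocd call of Ldhal6b was fragile and lay close to background. It held in 4 of 18 alternatives, with changes from 0.23, under the normexp background correction (limma adjusted p = 0.154), to 0.68. Without wild-type replicate 2 its limma adjusted p was 0.0628, without either knockout array 0.0978, and without Myocd replicates 1 and 2 it was 0.159 and 0.215. The 15 probes named MM9NEGATIVE had a median level 0.23 higher on the Myocd than on the wild-type arrays, and -0.04 in the knockout. Its spots spread by an SD of 0.16 to 0.33 within an array, against 0.04 to 0.18 for G6pd2.

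Gapdh was bright and did not pass in any cultured comparison, by any of its 3 probes. The probe with 20 spots stood at 9.45 and 9.92 in wild-type cells, 9.44 and 9.29 in knockout cells, and 9.68 and 9.66 with Myocd. Wild-type replicate 2 was the higher wild-type array on all 3 probes, by 0.47, 0.60 (3′) and 0.34 (5′), so much of the error came from this group. Knockout minus wild type was -0.32 (95% interval -0.79 to 0.16, limma adjusted p = 0.291) for the 20-spot probe, -0.49 (limma adjusted p = 0.181) for the 3′ probe and -0.31 (limma adjusted p = 0.242) for the 5′ probe. All 3 had both knockout arrays below both wild-type arrays. They read the same gene, and with 2 arrays against 2 the smallest exact permutation p is 0.333, so this is no test. Without wild-type replicate 1 the 3′ probe passed, at -0.79 (limma adjusted p = 0.0324). With Myocd the changes were -0.01 (95% interval -0.48 to 0.47, limma adjusted p = 0.985), -0.00 (limma adjusted p = 0.996) and 0.09 (limma adjusted p = 0.768), and all 3 signs depended on scaling or on single arrays. Myocd minus knockout was 0.31 (95% interval -0.16 to 0.78, limma adjusted p = 0.294), with 0.49 (limma adjusted p = 0.170) and 0.40 (limma adjusted p = 0.138) for the 3′ and 5′ probes, which passed in 5 and 2 of 18 alternatives. In a fit of only these 2 groups the 3′ probe passed at the same value (limma adjusted p = 0.0419). Leaving out either wild-type array gave that same fit again, so the passes of the 3′ probe are not all separate results.

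Pgk1 likewise lay near its wild-type level by the 3′ probe. It stood at 8.52 and 8.61 in wild-type cells, 8.44 and 8.36 in knockout cells, and 8.80 and 8.75 with Myocd. The groups did not overlap, which is no test with 2 arrays each. The changes were small: -0.17 in the knockout (95% interval -0.50 to 0.17, limma adjusted p = 0.424) and 0.21 with Myocd (95% interval -0.12 to 0.55, limma adjusted p = 0.356). The 5′ probe had the same order and wider gaps, with 5.48 and 5.05 in wild-type cells, 4.53 and 4.79 in knockout cells, and 5.64 and 5.61 with Myocd. Its change was -0.60 in the knockout (SE 0.20, limma adjusted p = 0.0821) and 0.36 with Myocd (limma adjusted p = 0.273). The former reached -0.82 when wild-type replicate 2 was left out and then passed (limma adjusted p = 0.0258), as it did in 4 of 18 alternatives in all. Between Myocd and knockout cells the 5′ probe differed by 0.96 (SE 0.20, limma adjusted p = 0.0151), 1.95-fold, and the 3′ probe by 0.38 (95% interval 0.04 to 0.71, limma adjusted p = 0.0931). That 5′ call was lost without knockout replicate 1 (limma adjusted p = 0.107) or Myocd replicate 1 or 2 (limma adjusted p = 0.0770 and 0.0758). The gap between the 5′ and 3′ probes, in level, was -3.31 ± 0.37 in wild-type, -3.74 ± 0.24 in knockout and -3.15 ± 0.01 in Myocd cells (SD, n = 2 each).

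**Figure D2:**
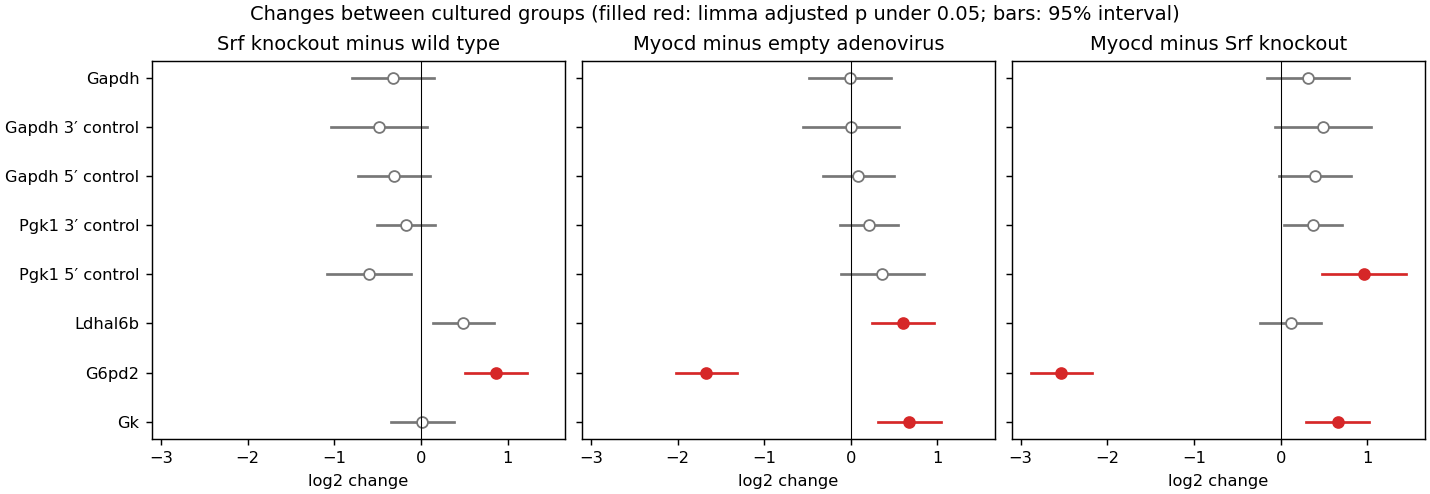
Points are log2 changes for each probe (rows), bars their 95% intervals from limma, and red filled points passed at an adjusted p under 0.05; each panel is 1 comparison with 2 arrays per group. G6pd2 passed in all 3 panels, at 0.87, -1.67 and -2.53, while the 3 Gapdh probes and the 3′ probe of Pgk1 passed in none.

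In freshly isolated aorta, Gk stood well above cultured wild-type cells and Gapdh, Pgk1 and G6pd2 below them. In bulk tissue, fewer cells of a type and less RNA per cell cannot be told apart. Aorta and liver lay on slide 2 with the Myocd arrays, and wild-type and knockout cells on slide 1. For every difference of aorta or liver from those cells, tissue and slide therefore cannot be told apart. Gk reached 0.71, 7.09-fold the wild-type mean, and 7.68% of probes had a difference at least as high. G6pd2 stood at 2.25, 3.71-fold below wild-type cells and close to the Myocd arrays at 2.52 and 2.44. Pgk1 by its 3′ probe was 3.67-fold lower, at 6.69, and Gapdh 2.10-fold lower, at 8.61. Both control probes of Gapdh were lower too, at 7.82 (3′) and 8.18 (5′). Ldhal6b, at -3.23, was 1.88-fold higher, and the median of the MM9NEGATIVE probes was 0.56 log2 units higher too, whose part was not tested. Its log2 difference of 0.91 was 0.41 with quantile normalization, 0.44 with array medians and 0.51 with normexp. Of all probes measured in aorta or wild-type cells, 26.6% were at least 2-fold higher and 21.9% at least 2-fold lower in aorta. With 1 array there is no test. Signs were the same under quantile normalization and array medians, with Gk 2.73 and 2.35 log2 units above wild-type cells, G6pd2 -1.65 and -2.37, and Gapdh -0.79 and -1.55. With normexp Gk was 2.24 log2 units above wild-type cells, against 2.83.

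Liver had the highest Gk level and by far the lowest G6pd2 level. Gk stood at 1.73, 14.3-fold the wild-type mean and 2.02-fold that of aorta. Before scaling, its processed intensity was 548 in liver and 596 in aorta. Relative to the median probe, liver minus aorta was 0.56 for Gk, and 35.7% of probes had a difference at least as high. G6pd2 was at -1.0, 35.3-fold below wild-type cells and 9.50-fold below aorta, although all 20 spots were well above background. Its processed intensity was 82.7 there, against 1730 in aorta and 9207 and 7620 in wild-type cells. Ldhal6b stood at -1.41, 6.66-fold above wild-type cells, a difference that came with a rise of 1.49 in the median level of the MM9NEGATIVE probes, whose part was not tested. Its log2 difference of 2.74 was 2.16 with quantile normalization, 2.04 with array medians and 1.72 with normexp. Before scaling, the processed intensity of Ldhal6b was 62.1 in liver, against 38.7 in aorta and 28.9 and 24.9 in wild-type cells. For Gk the difference of 3.84 was 3.15 with array medians and 3.09 with normexp, and for G6pd2 that of -5.14 was -5.83 with array medians. Against wild-type cells, 46% of probes were at least 2-fold higher and 27.4% at least 2-fold lower in liver, and against aorta 36.1% and 26.1%. The median probe was 0.80 log2 units above wild-type cells with the 75th percentile as scale, 0.38 with quantile normalization and 0.11 with array medians. Relative to that median, Gk stood at 3.04 and G6pd2 at -5.94.

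Gapdh in liver depended on the probe and on the scale. The 20-spot probe read 10.24 and the 3′ probe 9.51, above the wild-type means of 9.68 and 9.33, while the 5′ probe read 7.64, 4.33-fold below wild-type cells (6.63-fold with quantile normalization and 6.99-fold with array medians). With quantile normalization the 20-spot and 3′ differences were -0.58 and -0.63, and with array medians -0.13 and -0.51, so whether Gapdh is higher or lower in liver is not settled. Pgk1 was lower by its 3′ probe, the end used for level. This probe read 6.86, 3.26-fold below wild-type cells (5.26-fold with array medians). The 5′ probe had 0 of its 10 liver spots well above background. It was at least 440-fold lower than in wild-type cells and at least 49.0-fold lower than in aorta, bounds set by the lowest liver level called well above background (-3.52). These bounds hold for the processed intensity: with normexp the log2 difference from wild-type cells was -6.79, which is a smaller fold than the bound. The 5′ control probes named for human and rat GAPDH differed from wild-type cells by -7.66 and -7.63, and their 3′ probes by -0.48 and 0.53. The 5′ value of Pgk1 is thus not taken as a second reading of its level.

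**Figure D3:**
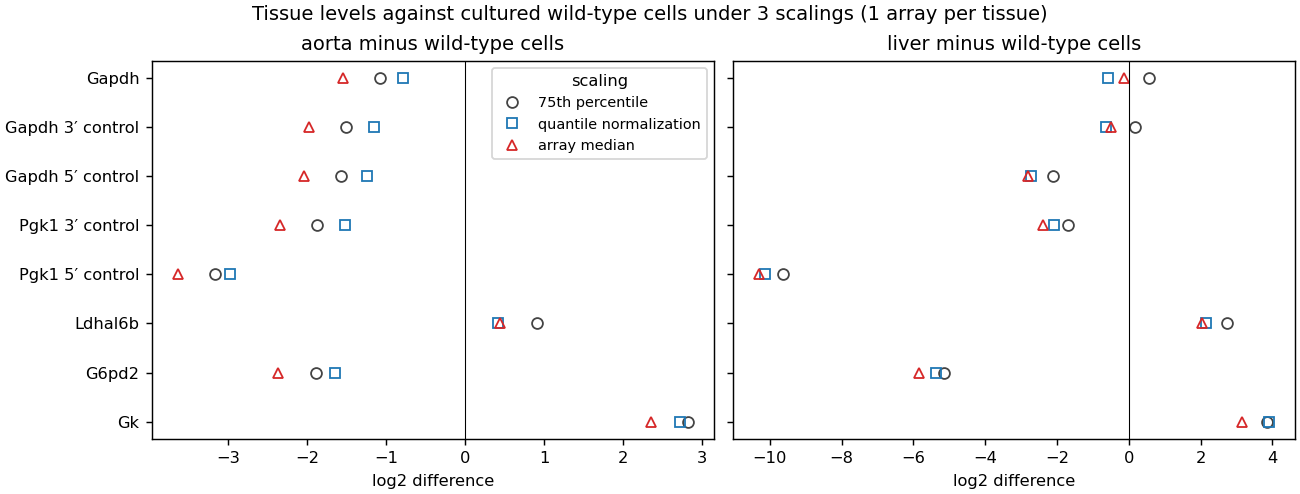
Horizontal positions are log2 differences of 1 aorta array (left) or 1 liver array (right) from the mean of the 2 wild-type arrays for each probe (rows), and the symbols stand for 3 scalings. In aorta each sign is the same under all 3, whereas the 20-spot and 3′ probes of Gapdh in liver lie on either side of 0, at 0.56 and 0.18 with the 75th percentile and -0.58 and -0.63 with quantile normalization.

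The 5′ and 3′ probes lay at other distances in liver than in cultured cells for both genes, and in aorta for Pgk1. In aorta the mouse Gapdh distance differed from the wild-type mean by -0.06, but those of the Human-GAPDH and Rat-GAPDH control probes by -1.45 and -1.13. For Gapdh, 5′ minus 3′ was 0.42 ± 0.18 in wild-type, 0.60 ± 0.05 in knockout and 0.51 ± 0.06 in Myocd cells (SD, n = 2 each), 0.36 in aorta and -1.88 in liver. For Pgk1 it was -4.60 in aorta, 1.29 log2 units below the wild-type mean, and in liver the 5′ probe was at background. The labelling protocol is described as random-primed along the whole transcript. No RNA quality score is among the sources used here, and the part of these 5′ differences in the levels of G6pd2, Gk and Ldhal6b, each read by a single probe of unstated position, was not tested.

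**Figure D4:**
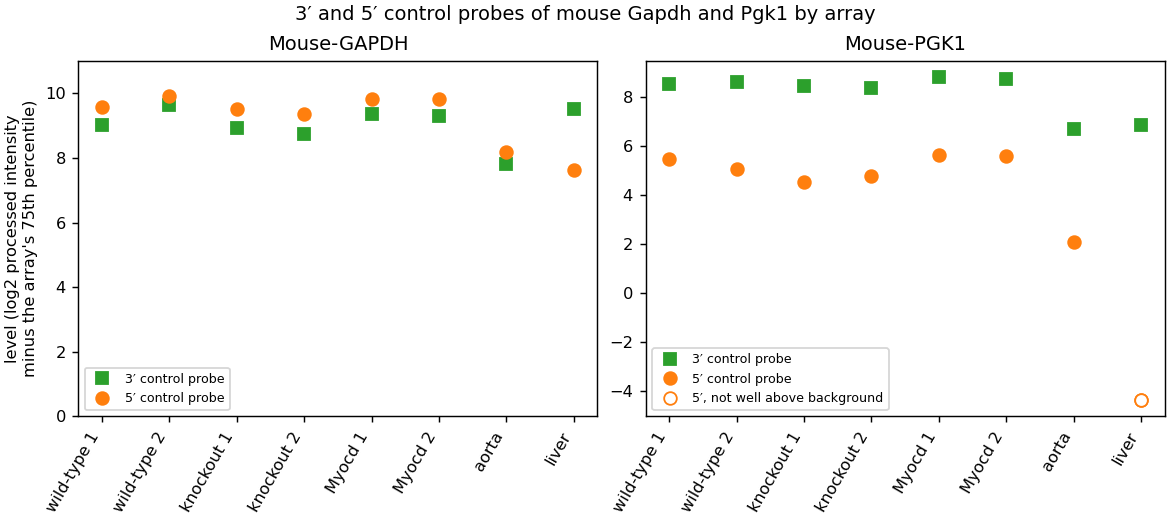
Each pair of symbols is 1 array, with the level of the 3′ (squares) and 5′ (circles) control probe on the vertical axis for mouse GAPDH (left) and PGK1 (right, on its own scale). On the cultured arrays 5′ minus 3′ ran from 0.29 to 0.64 for Gapdh and from -3.91 to -3.05 for Pgk1. In liver the 5′ probes drop, to 7.64 for Gapdh and to an open circle, not well above background, for Pgk1.

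The order of levels over the 5 groups differed between the members. For Gk it ran from liver through aorta and Myocd to knockout and wild-type cells, where the last 2 did not differ beyond their spread. For Ldhal6b the order was the same, with Myocd and knockout cells not told apart. Its aorta level lay above Myocd cells only with the 75th percentile as scale or normexp; against wild-type cells, aorta and Myocd stood at 0.41 and 0.50 with quantile normalization and at 0.44 and 0.51 with array medians. G6pd2 ran from knockout through wild-type, Myocd and aorta to liver, and Myocd and aorta differed by 0.23, with no replicate of aorta to judge it. With quantile normalization these 2 changed places, at -1.70 for Myocd and -1.65 for aorta against wild-type cells. Gapdh (20-spot probe) ran from liver through wild-type, Myocd and knockout cells to aorta, where the cultured groups did not differ beyond their spread and the place of liver depended on scaling. Pgk1 (3′) ran from Myocd through wild-type and knockout cells to liver and aorta. Liver minus aorta was 0.17 on this scale, -0.58 with quantile normalization and -0.047 with array medians, so the order of the 2 tissues is not settled.

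Likeness was measured as the root mean square difference of levels over the 8 arrays, after each probe's own mean was subtracted, among the named genes. The 3′ probe of Pgk1 was most like the 5′ probe of Gapdh, with a difference of 0.20. That 5′ probe read 7.64 in liver, against 10.24 for the 20-spot and 9.51 for the 3′ probe of Gapdh. The likeness is therefore not one to the 3′ end, which was used for level. The 20-spot and 3′ probes of Gapdh were most like Hprt, at 0.24 and 0.25. Ldhal6b was nearest to B2m, at 0.28. The nearest to Gk was B2m, at 0.73, and to G6pd2 Hsp90ab1, at 0.83. Each probe's own root mean square around its mean was 1.86 for G6pd2, 1.40 for Gk and 0.81 for Ldhal6b. For Pgk1 (3′) it was 0.79 and for Gapdh (20-spot) 0.45, so distances of different members are not directly comparable. Among 43949 tested probes without a gene name, 2140 lay closer to Gk than B2m did, and 463 closer to G6pd2 than Hsp90ab1. For Ldhal6b, Gapdh (20-spot) and Pgk1 (3′), 1070, 516 and 65 lay closer than the nearest named gene. The nearest were ASMM10P000693 for Gk, at 0.12, and ASMM10P021719 for G6pd2, at 0.28.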

How the data were processed

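The deposited scanner files hold a background-subtracted intensity per spot on an mm9 design, made by the authors in Agilent Feature Extraction 11.0.1.1, per the file headers. The authors also deposited log2 values for 42995 probes, which include none of the 5 genes' probes. They served as an alternative for counts of calls.

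The members and lists were chosen with earlier results of these data known. Outlier-flagged spots (35 of 960 member spots) were left out, and the spots of a probe were averaged as log2 values. A level is that mean minus the array's 75th percentile over probes. The 4 mouse control probes joined the 60930 other probes. Those well above background on every array of a cultured group were tested (44085) with limma 3.58.1 in R 4.3.3, 1 mean per group over 6 arrays, 3 residual degrees of freedom, two-sided, with Benjamini-Hochberg adjustment over all tested probes and a call at 0.05. The eBayes step of limma moderated the spread of each probe by that of all tested probes. The fit was tested on simulated data. No member spot was saturated. Where a spot's own array values were missing, the fit used the remaining arrays. The files lack a mean signal, so normexp used the median signal. Accessions were matched to RefSeq genes of GRCm38.p6 (15 of 15). Every member was named, with the most alike named gene. The number of arrays limits the precision.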

Additional observations from a re-analysis of the deposited data

How the results depend on the processing

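Over 18 alternatives per probe and comparison (17 planned, and the median of the tested probes as scale, chosen after seeing the data), G6pd2 kept its direction in all, and both its Myocd contrasts kept their calls. Among them, the fits without an array of the group not compared repeat the fit of only the groups compared, so counts out of 18 hold that result more than once. The authors' log2 values hold no member. Other changes follow, as log2 changes.

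With quantile normalization, Gk in the knockout was -0.12, Gapdh with Myocd 0.12 and its 3′ probe 0.23, and Myocd against knockout passed for Gapdh 3′ (0.65), Gapdh 5′ (0.44) and Pgk1 3′ (0.52). With array medians, Gk in the knockout was -0.17, Pgk1 5′ passed there (-0.79), Gapdh 5′ with Myocd was -0.0045, and the Myocd calls of Gk (0.58) and Ldhal6b (0.51) were lost. Normexp lost Ldhal6b (0.23) and added Pgk1 5′ in the knockout (-0.60) and Pgk1 3′ in Myocd against knockout (0.38). Medians over spots gave Gk -0.064 in the knockout and lost Ldhal6b (0.58). With outlier spots kept, Gk in the knockout was -0.034, Ldhal6b passed there (0.52), and Gapdh and its 3′ probe with Myocd were 0.0093 and 0.019. With the median of the tested probes as scale, Gk in the knockout was -0.086, Pgk1 5′ passed there (-0.70) and Ldhal6b with Myocd was lost (0.56).

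No filter, array weights, the replicate block and a fit of only the groups compared each lost the Myocd calls of Gk (0.68) and Ldhal6b (0.60), and trend and robust settings lost Ldhal6b. The first, the block and the last gave 4211, 4385 and 3906 Myocd calls, against 6695. Array weights passed Gapdh 3′ (0.49), Gapdh 5′ (0.40) and Pgk1 3′ (0.38) in Myocd against knockout, and the fit of 2 groups passed Gapdh 3′. On all 6 arrays above background, Ldhal6b passed in the knockout (0.49). The cause was not tested, except that no filter adds probes and the 2-group fit drops arrays.

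The labels do not say whether the replicate numbers pair the samples. Replicate differences correlated at -0.26 (wild-type and knockout), -0.07 (wild-type and Myocd) and 0.09 (knockout and Myocd). With 1 difference per group these values cannot settle it. The replicate block also lost Gk in Myocd against knockout (0.66), and with knockout numbers crossed, chosen after seeing the data, the knockout comparison called 8237 probes, against 6377 uncrossed and 9096 without a block.

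Leaving out 1 array gave 2701 to 13178 knockout calls, 2155 to 9213 Myocd calls and 5957 to 16178 for Myocd against knockout. In the knockout, G6pd2 ranged from 0.79 to 0.94, Gk from -0.077 to 0.11, Gapdh 3′ from -0.79 to -0.19 and Pgk1 5′ from -0.82 to -0.38. With Myocd, Gk ranged from 0.58 to 0.77, Ldhal6b from 0.55 to 0.65, Gapdh from -0.24 to 0.23, Gapdh 3′ from -0.30 to 0.30 and Gapdh 5′ from -0.081 to 0.26. In Myocd against knockout, Gk ranged from 0.59 to 0.73, Gapdh 3′ from 0.38 to 0.59 and Pgk1 5′ from 0.83 to 1.097. A group left with 1 array was assumed to vary like the others.

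In liver, Gapdh minus wild type was 0.56, and -0.58 with quantile normalization and -0.13 with array medians. For its 3′ probe these values were 0.18, -0.63 and -0.51, with -0.10 under normexp and from -0.12 to 0.48 without either wild-type array.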

Other observations

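The arrays also carry control probes named for human and rat GAPDH and PGK1, which hold no comparison of their own here but gave signal with mouse RNA. Their 5′ probes were far dimmer in liver than in wild-type cells: Human-GAPDH stood at -0.09 against a mean of 7.56, Rat-GAPDH at 1.29 against 8.91, and Human-PGK1 and Rat-PGK1 at -5.56 and -5.11, not well above background, against 3.60 and 5.09. Their GAPDH 3′ probes read 9.09 and 5.52 in liver, against 9.57 and 4.99. In aorta the same 4 5′ probes differed from wild-type cells by -2.69, -2.59, -3.13 and -3.20 log2 units. In knockout cells, the human and rat GAPDH 5′ probes stood at 6.70 and 8.08, differences of -0.87 and -0.83 from wild-type cells, against -0.31 for the mouse GAPDH 5′ probe. The 3′ probes differed as well, by -0.42 (human), -1.02 (rat) and -0.49 (mouse). These differences were not tested.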
